A study of Homo sapiens with 10 samples.

Results

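The cadherins and protocadherins, the calcium-dependent adhesion proteins of the cadherin superfamily, were followed in RBM4 knockout and wild type HAP1 cells. HAP1 is a near-haploid human line that was derived from the leukaemia line KBM-7 and grows attached. The members were taken by symbol from the protein-coding genes on the autosomes. They were the genes named CDH or PCDH with a number, the PCDHA, PCDHB and PCDHG genes of the clustered protocadherins, and the FAT, DCHS, CELSR, DSC and DSG genes. This gave 102 of the 19737 protein-coding genes in the counts table, of which 56 had enough counts to be tested. The paired-end libraries held polyadenylated RNA from RBM4 knockout clone 1 (labelled 1B2, n = 3), RBM4 knockout clone 2 (labelled 1B6, n = 2) and wild type cells (n = 3). A single-end RBM4 knockout clone (n = 1) and a single-end wild type sample (n = 1) completed the series, and the label of the single-end knockout does not say which clone it is. Each knockout group is 1 clone, so a difference between a clone and wild type that comes from the knockout and one that comes from the choice of the clone cannot be told apart within that clone. The labels give 1 culture protocol for all samples and no other allele or agent, and the series title gives the aim as finding genes that differ between knockout and wild type cells.

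Classical cadherins bind the same cadherin on a neighbouring cell through their outer repeats and hold the actin cytoskeleton through catenins. Desmosomal cadherins do the same for intermediate filaments, and the giant Fat, Dachsous and CELSR cadherins take part in the polarity of cells within a sheet. The clustered protocadherins lie in tandem as alpha, beta and gamma genes. Each alpha or gamma gene joins its own large first exon to constant exons shared by its cluster, whereas each beta gene is a single coding exon, and a neuron switches on only some of the promoters, which gives it an identity on its surface.

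RBM4, the targeted gene, encodes an RNA-binding protein of splicing and translation and was lower in every knockout library, at 22.3 to 25.8 CPM in the knockout libraries against 78.7 to 79.8 CPM in wild type (CPM is the counts of a gene scaled by the TMM library size, to a common depth). The paired-end libraries held 33192095 to 55617525 counts in all, and there were 41265510 in the single-end knockout and 44140706 in the single-end wild type. Of 10 blood cell markers, 9 stayed under 1 CPM in every paired-end library, and the list summed to 6.29 to 8.70 CPM in the knockout libraries and 12.6 to 14.2 CPM in wild type, nearly all of it KIT. The 5 epithelial markers summed to 56.3 to 75.4 CPM in the knockout libraries and 41 to 47.2 CPM in wild type, mostly KRT18 and KRT8, with EPCAM averaging 2.30 CPM in clone 1 and 0.963 CPM in clone 2, against 1.57 CPM in wild type, and KRT19 and CDH1 at no more than 1 count in any library. The 5 neural markers summed to 81.3 to 96.9 CPM in the knockout libraries and 64.6 to 73.5 CPM in wild type, nearly all of it TUBB3, with ELAVL4 and STMN2 at 0 in the paired-end libraries. The 5 adherent or mesenchymal markers summed to 402 to 464 CPM in the knockout libraries and 490 to 528 CPM in wild type, mostly VIM, and the members of this list differed in direction. COL1A1 averaged 19.7 CPM in clone 1, 26.3 CPM in clone 2 and 13.4 CPM in wild type, FN1 17.2 CPM in clone 1, 21.0 CPM in clone 2 and 23.4 CPM in wild type, and THY1 1.14 CPM in clone 1, 0.163 CPM in clone 2 and 0.341 CPM in wild type. The part of these marker differences in the results below was not tested. Sample numbers in the column names run from 1 to 5 for wild type and the first replicate of each clone, and from 11 to 13 for the other knockout libraries, so the second run held no wild type library. Results from the first run alone are given beside the results they touch. The first run holds 1 library of each clone, so the spread within a group there comes from the wild type libraries only. A fit without 1 of the clone 2 libraries also leaves 1 library of clone 2. A call kept or lost in such a fit has no replicate of that clone behind it.

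Of the 102 members, 46 had too few counts to be tested, 8 of these had no count in the 8 paired-end libraries, and the highest count of any untested member in any paired-end library was 14 (FAT3). CDH1, the E-cadherin of epithelia, had 1 count in 2 of the paired-end knockout libraries and none in the other paired-end libraries. CDH5 (the VE-cadherin of endothelium), CDH11 (the OB-cadherin of bone and mesenchyme), CDH18, CDH19 and CDH20 had no count in the paired-end libraries, nor had CDH16, DSG4 and PCDHB1. DSC1, DSC3, DSG1 and DSG3, desmosomal cadherins mainly of stratified epithelium, had at most 1 count in any paired-end library. Per kilobase of exon, the highest levels in wild type were those of CDH6 (22.6 CPM per kb), DSG2 (19.5), CDH2 (12.3), FAT1 (10.9) and PCDH18 (10.6), and FAT1 and PCDH18 lay within each other's spread. CDH24 (8.44 CPM per kb), CELSR2 (7.14), CELSR1 (5.46) and CDH10 (4.45) followed, and every other member stood below 2 CPM per kb in wild type. Divided only by the exon bases it shares with no other gene of its cluster, PCDHGC3 stood at 2.96 CPM per kb in wild type. CDH6, a type II classical cadherin first known from kidney, led the order in the knockout clones too, with 22.8 CPM per kb in clone 1 and 21.1 in clone 2. Its levels were 265, 300 and 281 CPM in clone 1, 239 and 283 CPM in clone 2, against 264, 290 and 285 CPM in wild type. The 3 groups overlapped, and the clone average, the mean of the log2 fold changes of clone 1 and clone 2, was -0.043 (SE 0.063, edgeR adjusted p = 0.690).

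**Figure D1:**
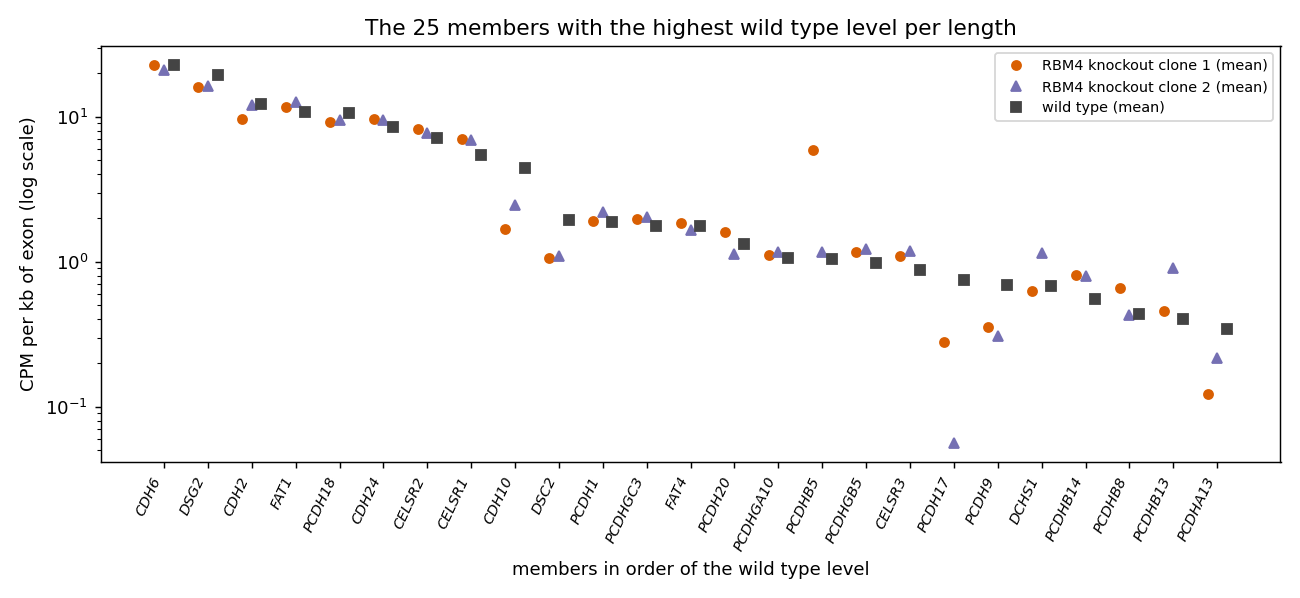
Mean level of the 25 members with the highest wild type level per length, in CPM per kilobase of exon on a log axis, for clone 1 (circles), clone 2 (triangles) and wild type (squares). The highest 8 genes stay above 5 CPM per kb in every group, PCDHB5 stands far above its other levels in clone 1 (5.85 CPM per kb, against 1.04 in wild type), and PCDH17 stands lowest in clone 2 (0.056 CPM per kb, against 0.744 in wild type).

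Against wild type, 8 of the 56 tested members rose and 10 fell in the clone average (edgeR quasi-likelihood test, adjusted p below 0.05 over all 20747 genes and repeats tested). That is 32.1% of the tested members, and 18.0% of all features were called, 9.87% up and 8.09% down. The members that rose were CELSR1, CELSR3, DCHS1, PCDHB4, PCDHB5, PCDHB12, PCDHB13 and PCDHB14, and those that fell were CDH2, CDH10, DSC2, DSG2, PCDH7, PCDH9, PCDH17, PCDHA7, PCDHA13 and PCDHAC2. Of those that rose, CELSR1 and CELSR3 were called up in each clone. Of those that fell, CDH10, DSC2, DSG2, PCDH7, PCDH9 and PCDH17 were called down in each clone. The rest were called in 1 clone only, clone 2 for DCHS1 and PCDHB13 and clone 1 for the others. In clone 1, 20 members were called, 9 up and 11 down, which is 35.7% of the tested members against 16.0% of all features (9.37% up, 6.64% down). In clone 2, 11 were called, 5 up and 6 down, which is 19.6% against 10.8% of all features (6.18% up, 4.59% down). Clone 2 differed from clone 1 in 9 members, 5 higher and 4 lower, which is 16.1% of the tested members against 2.09% of all features (1.10% up, 0.993% down). The comparisons of clone 1 and of clone 2 share the wild type libraries. The median log2 fold change over the tested members in the clone average was 0.14, and that over all features was 0.0020. In 7 of the 56 members every knockout library stood above every wild type library (13.5% of all features did), and in 8 every knockout library stood below (11.8% of all features did). By family, none of the 14 tested gamma protocadherins was called, the 5 called beta protocadherins rose and the 3 called alpha protocadherins fell. PCDHA7 and PCDHA13, whose rows held nearly the same counts, are counted as separate members here. The count of members up was 4 without wild type replicate 1 and 5 without wild type replicate 2. Over all features, 1847 of 20594 were called in either direction without wild type replicate 1. Without wild type replicate 2 it was 2217 of 20679, against 3725 of 20747 with all libraries. Counts of calls from the first run alone and from fits with 1 clone 2 library are not given.

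**Figure D2:**
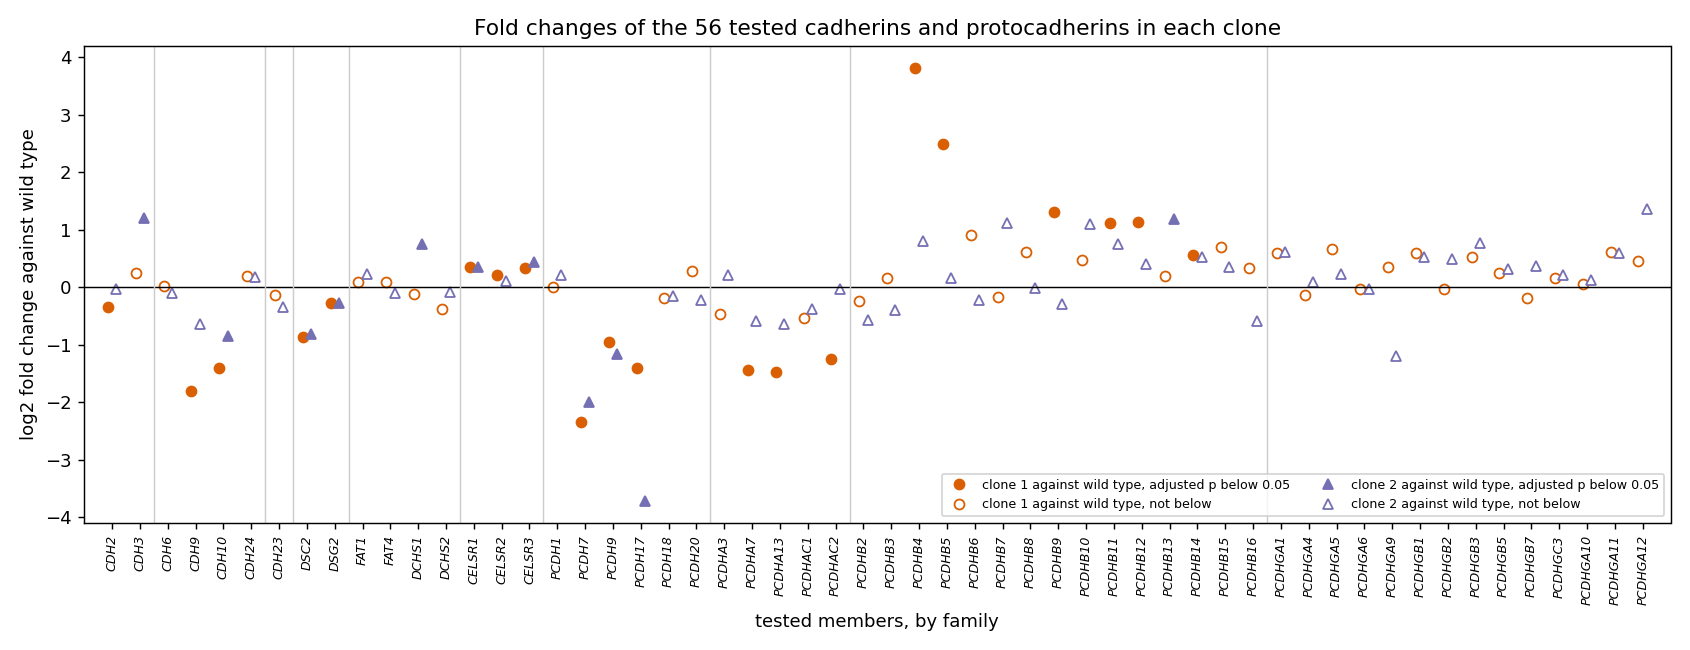
Log2 fold change of each of the 56 tested members against wild type in clone 1 (circles) and clone 2 (triangles), with families separated by grey lines and filled symbols for an adjusted p below 0.05. The largest rise is that of PCDHB4 in clone 1 (3.82), the largest fall is that of PCDH17 in clone 2 (-3.72), and the gamma genes at the right hold no filled symbol.

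Among the 5 type I classical cadherins, whose cytoplasmic tails bind beta-catenin, CDH2 and CDH3 were tested. Gene positions are those of GENCODE 29 on GRCh38. CDH2 (ENSG00000170558, chromosome 18, 27950966 to 28177446), the N-cadherin of neural and mesenchymal cells, stood at 46.5, 51.8 and 45.3 CPM in clone 1, 55.9 and 62.8 CPM in clone 2, against 58.6, 62.7 and 61 CPM in wild type. All clone 1 libraries stood below all others, and clone 2 overlapped wild type. In RNA from a whole culture, fewer cells that express a gene and less RNA per cell cannot be told apart. CDH2 fell in clone 1 (log2 fold change -0.34, SE 0.066, edgeR adjusted p = 0.00353). Clone 2 gave -0.034 against wild type (SE 0.073, edgeR adjusted p = 0.838), and clone 2 was higher than clone 1 by 0.31 (SE 0.073, edgeR adjusted p = 0.0458). In the clone average CDH2 changed by -0.19 (edgeR adjusted p = 0.0416), a call that was lost in 7 of 20 alternatives, among them the GC correction (-0.15, adjusted p = 0.0502) and the fits without any 1 of the 3 wild type libraries, without clone 1 replicate 3 and without clone 2 replicate 1, where adjusted p reached 0.157, and with all knockout libraries as 1 group (-0.21, adjusted p = 0.174). That fit takes 1 mean over all knockout libraries rather than the equal mean of the clones, and its spread includes the difference between the clones. The call between the clones was lost in 9 of 19 alternatives. Among them were the fits without any 1 wild type library or clone 1 replicate 1 or 3, where adjusted p reached 0.121. The first run alone gave 0.25, and the fit without clone 2 replicate 2 gave 0.22. CDH3, the P-cadherin of placenta and basal epithelium, was chosen for description after its values were seen, since it averaged under 1 CPM. It had 19, 29 and 29 counts in clone 1 and 49 and 53 counts in clone 2, against 28, 19 and 13 counts in wild type. It rose in clone 2 (log2 fold change 1.20, SE 0.304, edgeR adjusted p = 0.0217), a call that was lost without wild type replicate 2 or 3 and without either clone 2 replicate, where adjusted p reached 0.128 and the fold change ran from 0.93 to 1.24 (log2). In the single-end pair it had 44 counts in the knockout and 3 counts in wild type.

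The type II classical cadherins, relatives of the type I proteins that serve mainly in the nervous system and mesenchyme, had 13 members, 4 of them tested. CDH10 (ENSG00000040731, chromosome 5, 24487100 to 24644978), a cadherin of the brain, stood at 5.68, 6.55 and 6.12 CPM in clone 1, 7.70 and 10.2 CPM in clone 2, against 16.3, 15.4 and 17.2 CPM in wild type. Every knockout library was below every wild type library, and clone 1 was the lowest group with no overlap. CDH10 fell 2.19-fold in the clone average (log2 fold change -1.13, SE 0.096, edgeR adjusted p = 3.21e-06). By clone it gave -1.41 in clone 1 and -0.86 in clone 2, and the first run alone gave -1.52 in clone 1 and -1.09 in clone 2. Clone 2 was higher than clone 1 by 0.55 (SE 0.125, edgeR adjusted p = 0.0352), which was lost in 8 of 19 alternatives, 7 of them fits without 1 library (all but clone 2 replicate 1), where adjusted p reached 0.620. CDH9, a brain cadherin that lies near CDH10 on chromosome 5, also fell in clone 1 (log2 fold change -1.81, edgeR adjusted p = 0.0307). It was chosen after its values were seen and rests on 6, 2 and 6 counts in clone 1, 14 and 8 counts in clone 2, against 17, 12 and 18 counts in wild type. That call was lost in 6 of 18 alternatives, among them the fits without clone 1 replicate 2 or any 1 wild type library, and the first run alone gave -1.11. CDH24, also of type II, averaged 36.3 CPM in clone 1, 35.7 CPM in clone 2 and 31.6 CPM in wild type, and did not pass the test (edgeR adjusted p = 0.0687). Of the 5 other CDH genes, which belong to neither type, the one tested was CDH23, a cadherin of the tip links of inner ear hair cells, with 2.02, 2.06 and 2.62 CPM in clone 1, 2.10 and 1.78 CPM in clone 2, against 2.45, 2.34 and 2.59 CPM in wild type. Clone 1 overlapped wild type and both clone 2 libraries lay below it, and the clone average of -0.24 did not pass (SE 0.143, edgeR adjusted p = 0.272).

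Both tested desmosomal cadherins fell, of 7 members in all. DSC2 (ENSG00000134755, chromosome 18, 31058840 to 31102522), the desmocollin of simple epithelia and heart, stood at 13.3, 14.0 and 12.4 CPM in clone 1, 14.0 and 13.6 CPM in clone 2, against 23, 23.7 and 26.1 CPM in wild type. The clones overlapped each other and lay far below wild type. DSC2 was 1.80-fold lower in the clone average (log2 fold change -0.84, SE 0.068, edgeR adjusted p = 2.09e-06), with -0.87 in clone 1 and -0.82 in clone 2, and clone 2 against clone 1 gave 0.054 (SE 0.088). DSG2 (ENSG00000046604, chromosome 18, 31498043 to 31549008), its desmoglein partner, lies beyond DSC2 on the same chromosome. It stood at 95.1, 108 and 94.7 CPM in clone 1, 96.4 and 104 CPM in clone 2, against 120.5, 120.0 and 122 CPM in wild type. Every knockout library was again below every wild type library, by a smaller margin (log2 fold change -0.28, SE 0.054, edgeR adjusted p = 0.00303). Its fall in clone 2 alone (-0.27, edgeR adjusted p = 0.0192) was lost without any 1 wild type library and without clone 2 replicate 1, where adjusted p reached 0.239. In the first run alone the clone average gave -0.84 for DSC2 and -0.34 for DSG2. In the single-end pair DSC2 had 654 counts in the knockout and 1081 in wild type. DSG2 had 3376 counts in the knockout and 4272 in wild type.

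**Figure D3:**
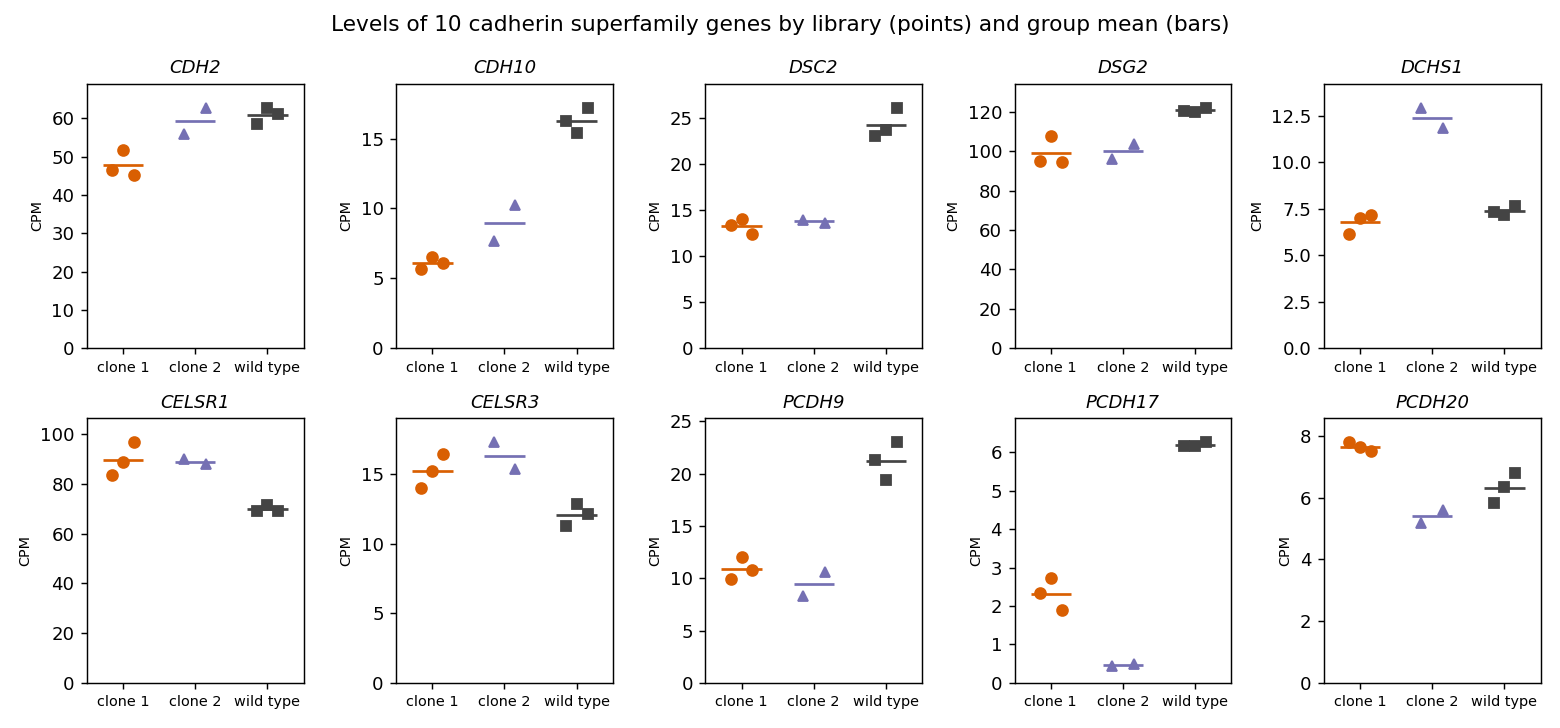
Level in CPM of 10 cadherin superfamily genes in each paired-end library (points) with the group mean (bars), for clone 1, clone 2 and wild type from left to right in each panel. CDH10, DSC2, DSG2, PCDH9 and PCDH17 are lower in all 5 knockout libraries than in all 3 wild type libraries, CELSR1 and CELSR3 are higher in all 5, and DCHS1 is high in clone 2 only.

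The Fat and Dachsous cadherins are giant proteins that bind each other between cells, as FAT4 binds DCHS1. DCHS1 (ENSG00000166341, chromosome 11, 6621323 to 6655854) was called, and the other 3 tested were called in no comparison. It stood at 12.9 and 11.9 CPM in clone 2, against 6.16, 7.0 and 7.16 CPM in clone 1, with 7.31, 7.16 and 7.66 CPM in wild type. Both clone 2 libraries were above all 6 others, while the highest clone 1 library stood just under the lowest wild type library. DCHS1 rose in clone 2 (log2 fold change 0.75, SE 0.104, edgeR adjusted p = 0.000344) and clone 2 was higher than clone 1 by 0.87 (SE 0.104, edgeR adjusted p = 0.000241), calls that held in each of the alternatives run. The first run alone gave 0.80 for clone 2 against wild type and 1.06 for clone 2 against clone 1. Clone 1 against wild type gave -0.12 (SE 0.098, edgeR adjusted p = 0.436). The call in the clone average (0.31, edgeR adjusted p = 0.0237) was lost in 9 of 20 alternatives, among them the first run alone (0.27), the GC correction (0.17, adjusted p = 0.173), all knockout libraries as 1 group (0.30, adjusted p = 0.492) and the fits without any 1 wild type library or without clone 2 replicate 1, where adjusted p reached 0.111. DCHS1 is GC-rich at 62.0% of its longest transcript, and levels followed GC content differently among the libraries, also within each clone. Across genes, a library's deviation from the mean of all libraries was set against GC content. The Spearman correlations were 0.28, -0.017 and 0.392 in clone 1, 0.35 and -0.050 in clone 2, and -0.414, -0.343 and -0.249 in wild type. FAT4 averaged 30.6 CPM in clone 1, 27.1 CPM in clone 2 and 29 CPM in wild type, with a log2 fold change of -0.0071 in the clone average (SE 0.107, edgeR adjusted p = 0.976). FAT1, a regulator of actin at the cell edge, averaged 188 CPM in clone 1, 205 CPM in clone 2 and 176 CPM in wild type (edgeR adjusted p = 0.299). In the single-end pair DCHS1 had 622 counts in the knockout and 305 in wild type.

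CELSR proteins are the cadherins with a receptor-like membrane domain that correspond to Flamingo of the fly, and all 3 were tested. CELSR1 (ENSG00000075275, chromosome 22, 46360834 to 46537170), which acts in planar cell polarity of epithelia, stood at 83.7, 88.7 and 96.6 CPM in clone 1, 89.9 and 88.0 CPM in clone 2, against 69.3, 71.6 and 69.0 CPM in wild type. CELSR3 (ENSG00000008300, chromosome 3, 48636469 to 48662915), which acts in axon tracts, stood at 14.0, 15.2 and 16.4 CPM in clone 1, 17.3 and 15.4 CPM in clone 2, against 11.3, 12.8 and 12.1 CPM in wild type. For both genes every knockout library was above every wild type library. CELSR1 rose by 0.35 on the log2 scale (SE 0.053, edgeR adjusted p = 0.000502) and CELSR3 by 0.39 (SE 0.081, edgeR adjusted p = 0.00516) in the clone average. After the GC correction these were 0.21 for CELSR1 (adjusted p = 0.00822) and 0.24 for CELSR3 (adjusted p = 0.028). By clone, CELSR1 gave 0.36 in clone 1 and 0.35 in clone 2, and CELSR3 gave 0.34 in clone 1 and 0.44 in clone 2. In the first run alone the clone average was 0.31 for CELSR1 and 0.36 for CELSR3. The rise of CELSR3 in clone 1 was lost after the GC correction (0.18, adjusted p = 0.146) and without wild type replicate 1, wild type replicate 3 or clone 1 replicate 3. The first run alone gave 0.22 for it. The rise of CELSR3 in clone 2 was lost without wild type replicate 1 (adjusted p = 0.0609), and leaving out clone 2 replicate 1 gave 0.35. CELSR2 (ENSG00000143126, chromosome 1, 109250019 to 109275750) stood at 91.1, 105 and 111 CPM in clone 1, 95.1 and 94.7 CPM in clone 2, against 85.3, 87.1 and 92.1 CPM in wild type. Clone 1 overlapped wild type at CELSR2 and clone 2 stood just above it, and the gene was called in clone 1 only (log2 fold change 0.22, SE 0.068, edgeR adjusted p = 0.0457). That call was lost in 15 of 19 alternatives. DESeq2, the GC correction (0.060, adjusted p = 0.578) and the fits without any 1 wild type library or clone 1 replicate 2 or 3 were among them. The first run alone gave 0.048.

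Of the 10 non-clustered protocadherins, signalling proteins with weak adhesion that act mostly in the brain, 6 were tested. PCDH17, PCDH20 and PCDH9 lie in that order on chromosome 13. PCDH17 (ENSG00000118946, chromosome 13, 57631810 to 57729311), a regulator of synapses and axon growth, stood at 2.33, 2.73 and 1.90 CPM in clone 1, 0.446 and 0.489 CPM in clone 2, against 6.17, 6.16 and 6.26 CPM in wild type. The groups did not overlap, with clone 2 lowest and wild type highest. PCDH17 fell 2.65-fold in clone 1 (log2 fold change -1.41, SE 0.142, edgeR adjusted p = 2.23e-05) and 13.2-fold in clone 2 (-3.72, SE 0.208, edgeR adjusted p = 6.43e-08), and clone 2 was lower than clone 1 by 2.31 on the log2 scale (log2 difference -2.31, SE 0.220, edgeR adjusted p = 2.7e-05). The first run alone gave -1.41 in clone 1, -3.80 in clone 2 and a difference of -2.39. Its call in the clone average was lost with all knockout libraries as 1 group (-1.96, adjusted p = 0.0509). PCDH9 (ENSG00000184226, chromosome 13, 66302834 to 67230445) stood at 9.97, 12.1 and 10.8 CPM in clone 1, 8.29 and 10.6 CPM in clone 2, against 21.3, 19.4 and 23 CPM in wild type. The clones overlapped each other and lay well below wild type. PCDH9 was 2.08-fold lower in the clone average (log2 fold change -1.06, SE 0.094, edgeR adjusted p = 4.87e-06), with -0.95 in clone 1 and -1.17 in clone 2, and -1.23 in the first run alone. PCDH20 (ENSG00000280165, chromosome 13, 61409685 to 61415522), between PCDH17 and PCDH9, gave other values. It stood at 7.79, 7.65 and 7.53 CPM in clone 1, 5.20 and 5.61 CPM in clone 2, against 5.82, 6.36 and 6.79 CPM in wild type. Clone 1 was the highest group and clone 2 the lowest, and clone 2 was below clone 1 (log2 difference -0.50, SE 0.114, edgeR adjusted p = 0.0359), whereas neither clone passed against wild type (edgeR adjusted p = 0.0792 in clone 1 and 0.261 in clone 2). That difference was lost in 9 of 19 alternatives, the fit with the replicate block among them, and the first run alone gave -0.59. It was lost without any 1 library other than wild type replicate 3.

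PCDH7, which binds protein phosphatase 1, was chosen after its values were seen, since it averaged under 1 CPM. It had 9, 10 and 5 counts in clone 1, 8 and 13 counts in clone 2, against 35, 39 and 39 counts in wild type. PCDH7 was 4.48-fold lower in the clone average (log2 fold change -2.16, SE 0.286, edgeR adjusted p = 0.000182), with -2.34 in clone 1 and -1.99 in clone 2, a fall that held in each of the alternatives run. PCDH18, the most abundant protocadherin per length, averaged 61.6 CPM in clone 1, 63.3 CPM in clone 2 and 70.6 CPM in wild type (edgeR adjusted p = 0.102), and PCDH1 averaged 11.2 CPM in clone 1, 12.9 CPM in clone 2 and 11.2 CPM in wild type (edgeR adjusted p = 0.376). In the single-end pair PCDH17 had 33 counts in the knockout and 344 in wild type. PCDH9 had 378 counts in the knockout and 830 in wild type, and PCDH7 had 6 in the knockout and 56 in wild type. PCDH20 had 243 counts in the knockout and 227 in wild type. The GC content of the longest transcript had a median of 43.5% over the 10 members that fell (34.3% to 49.6%), 48.4% over the 8 that rose (44.9% to 62.0%) and 52.1% over the 38 not called. The falls of CDH10, DSC2, DSG2, PCDH7, PCDH9 and PCDH17 in the clone average were all called after the GC correction.

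The clustered protocadherins lie on chromosome 5 in the order alpha, beta, gamma. In GENCODE 29 all 15 alpha members share 19.2% to 56.6% of their exon bases with another member and all 22 gamma members share 27.6% to 64.4%, while the 16 beta members share none. The sources used here do not say how reads from shared exons, or reads that match several genes of like sequence, were divided among the rows. Each cluster was therefore also tested as a sum of its rows. The values of single beta genes below carry this limit too, since sequence identity among the beta genes was not computed. The sums moved in different ways. The beta sum averaged 37.5 ± 0.540 CPM in clone 1 (SD, n = 3), 19.6 ± 0.315 CPM in clone 2 (n = 2) and 14.9 ± 0.637 CPM in wild type (n = 3), with no overlap among the groups. It rose by 1.33 on the log2 scale in clone 1 (SE 0.062, edgeR adjusted p = 1.57e-08) and by 0.39 in clone 2 (SE 0.069, edgeR adjusted p = 0.00219), and clone 2 was below clone 1 (-0.94, edgeR adjusted p = 1.77e-06). The first run alone gave 1.31 in clone 1, 0.37 in clone 2 and -0.94 between the clones. The alpha sum averaged 3.44 ± 0.262 CPM in clone 1, 6.02 ± 0.419 CPM in clone 2 and 7.19 ± 0.268 CPM in wild type. It fell in clone 1 (log2 fold change -1.06, SE 0.110, edgeR adjusted p = 3.11e-05), and clone 2 was above clone 1 by 0.80 (SE 0.122, edgeR adjusted p = 0.00202), while clone 2 against wild type gave -0.26 (SE 0.118, edgeR adjusted p = 0.208). In the first run alone these were -1.14 in clone 1, 0.80 between the clones and -0.34 in clone 2. The gamma sum averaged 30.6 ± 3.11 CPM in clone 1, 32.4 ± 0.531 CPM in clone 2 and 27.3 ± 0.973 CPM in wild type. Its call in the clone average (0.21, SE 0.066, edgeR adjusted p = 0.0422) was lost after the GC correction (0.14, adjusted p = 0.161) and without any 1 wild type library or clone 1 replicate 2, where adjusted p reached 0.202. The first run alone gave 0.14, and leaving out clone 2 replicate 1 or 2 gave 0.21 or 0.19.

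The beta genes of clone 1 changed unevenly. PCDHB5 (ENSG00000113209, chromosome 5, 141135218 to 141138625) stood at 20.7, 19.4 and 19.7 CPM in clone 1, 4.01 and 3.89 CPM in clone 2, against 3.35, 3.88 and 3.39 CPM in wild type. Every clone 1 library was far above all others, and clone 2 stood just above the highest wild type library. PCDHB5 rose 5.64-fold in clone 1 (log2 fold change 2.5, SE 0.095, edgeR adjusted p = 2.18e-09), clone 2 was lower than clone 1 by 2.34 (log2 difference -2.34, SE 0.108, edgeR adjusted p = 1.22e-08), and clone 2 against wild type gave 0.16 (SE 0.113, edgeR adjusted p = 0.435). The first run alone gave 2.55 and a difference of -2.38. The call of PCDHB5 in the clone average was lost with all knockout libraries as 1 group (adjusted p = 0.144). PCDHB4 (ENSG00000081818, chromosome 5, 141121799 to 141125623), the neighbour of PCDHB5 on its 5′ side, was chosen after its values were seen. It had 38, 61 and 58 counts in clone 1, 6 and 7 counts in clone 2, against 3, 0 and 7 counts in wild type. Again clone 1 stood alone, with a fitted rise of 14.1-fold over wild type libraries at or near 0 (log2 fold change 3.82, SE 0.469, edgeR adjusted p = 0.000125), and clone 2 against wild type did not pass (0.80, edgeR adjusted p = 0.554). Clone 2 was below clone 1 (-3.02, SE 0.481, edgeR adjusted p = 0.00298), and the first run alone, with 1 library of each clone, gave -2.93. The call of PCDHB4 in the clone average (2.31, edgeR adjusted p = 0.0104) was lost without wild type replicate 1 and with all knockout libraries as 1 group, where adjusted p reached 0.104.

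PCDHB13 (ENSG00000187372, chromosome 5, 141213919 to 141218979) stood apart in clone 2 instead. It stood at 4.43 and 4.80 CPM in clone 2, against 1.81, 2.65 and 2.44 CPM in clone 1, with 2.04, 2.20 and 1.87 CPM in wild type. Both clone 2 libraries were above all others, and clone 1 overlapped wild type. PCDHB13 rose 2.27-fold in clone 2 (log2 fold change 1.18, SE 0.170, edgeR adjusted p = 0.000456), clone 1 against wild type gave 0.20 (SE 0.165, edgeR adjusted p = 0.447), and clone 2 was higher than clone 1 by 0.99 (SE 0.167, edgeR adjusted p = 0.00479). The difference between the clones was lost without clone 2 replicate 2 (adjusted p = 0.0633). PCDHB14 (ENSG00000120327, chromosome 5, 141222932 to 141227759) was alike in the clones, at 3.78, 4.02 and 3.95 CPM in clone 1, 3.59 and 4.06 CPM in clone 2, against 2.42, 2.28 and 3.27 CPM in wild type. Every knockout library was above every wild type library, and PCDHB14 rose by 0.54 on the log2 scale in the clone average (SE 0.137, edgeR adjusted p = 0.0154). PCDHB12 (ENSG00000120328, chromosome 5, 141208697 to 141212571) stood at 1.51, 2.13 and 2.32 CPM in clone 1, 1.53 and 0.914 CPM in clone 2, against 0.879, 0.970 and 0.897 CPM in wild type. It rose in clone 1 (log2 fold change 1.13, SE 0.234, edgeR adjusted p = 0.00559), the first run alone gave 0.72, and clone 2 overlapped wild type. In the clone average the call of PCDHB12 was lost in 6 of 19 alternatives and that of PCDHB14 in 5, and adjusted p reached 0.131 for PCDHB12 and 0.0989 for PCDHB14. The fits that lost them were those without wild type replicate 1 or 2 for both genes, for PCDHB12 also those that left out replicate 3 of wild type, replicate 2 of clone 1 or replicate 1 of clone 2, and for PCDHB14 also that without clone 2 replicate 2, besides the run term for both and the first run alone for PCDHB14 (0.46). The call of PCDHB13 in the clone average (0.69, edgeR adjusted p = 0.00543) was lost with all knockout libraries as 1 group (0.68, adjusted p = 0.165), and the first run alone gave 0.48. PCDHB9 and PCDHB11, chosen after their values were seen, rose in clone 1 on 14 to 37 counts per clone 1 library, by 1.30 and 1.11 on the log2 scale (edgeR adjusted p = 0.036 and 0.0346), and both calls were lost under DESeq2, in the first run alone and without wild type replicate 1 or 2. The call of PCDHB9 was also lost without clone 1 replicate 1 or 3, and that of PCDHB11 when replicate 3 of wild type or replicate 2 or 3 of clone 1 was left out. The median over the 15 tested beta genes was 0.61 for clone 1 and 0.35 for clone 2 on the log2 scale, and over all features it was -0.0018 for clone 1 and 0.010 for clone 2. PCDHB2, PCDHB3, PCDHB6, PCDHB7, PCDHB8, PCDHB10, PCDHB15 and PCDHB16 were called in no comparison.

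**Figure D4:**
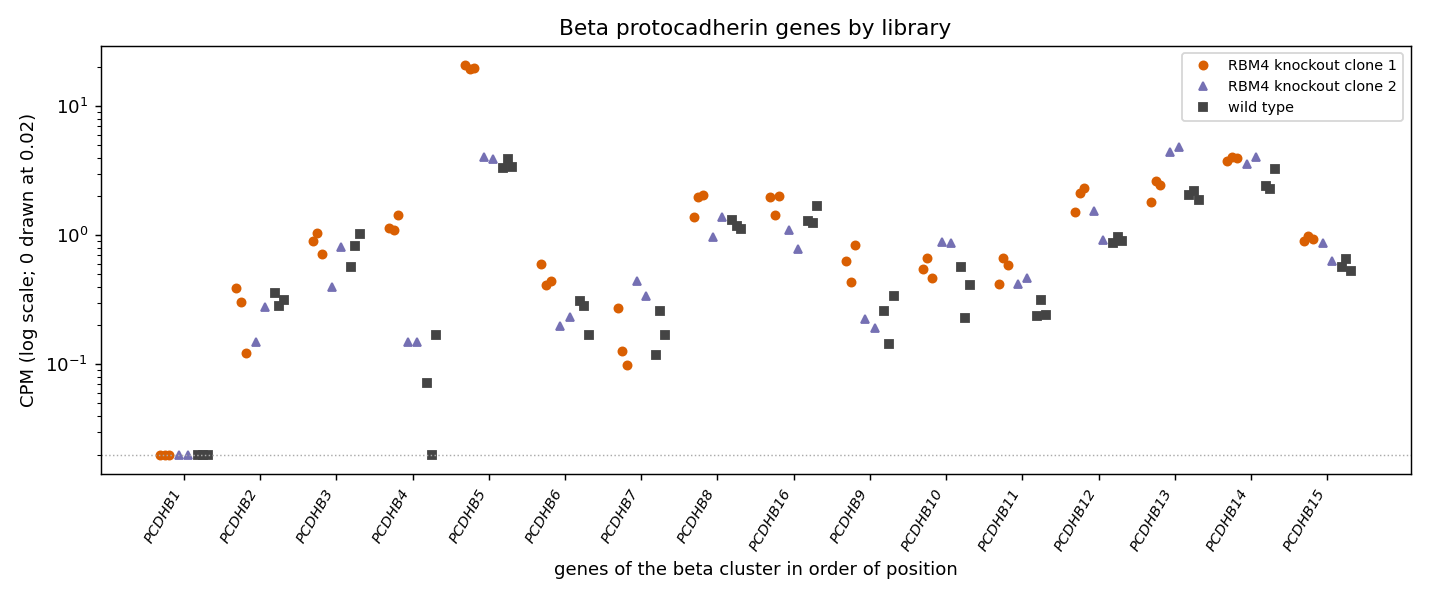
Level in CPM (log axis, 0 drawn at 0.02) of the 16 beta protocadherin genes in order of position on chromosome 5, with a point for each library of clone 1 (circles), clone 2 (triangles) and wild type (squares). Clone 1 stands apart at PCDHB4 and PCDHB5, clone 2 stands apart at PCDHB13, and PCDHB1 is at 0 in all 8 libraries.

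The counts of the cluster were divided differently among its genes in each group. PCDHB5 took 53.2% ± 2.43 of the beta counts in clone 1 (SD, n = 3), 20.7% and 19.6% in the clone 2 libraries, and 23.8% ± 2.30 in wild type (SD, n = 3). PCDHB13 took 6.14% ± 1.12 in clone 1, 22.9% and 24.3% in clone 2, and 13.7% ± 1.53 in wild type. By counts PCDHB13 thus stood above PCDHB5 in clone 2. Per kilobase of exon PCDHB5 stood above PCDHB13 in each group, at 5.85 CPM per kb in clone 1, 1.16 in clone 2 and 1.04 in wild type, with PCDHB13 at 0.455 CPM per kb in clone 1, 0.912 in clone 2 and 0.402 in wild type. In the single-end pair PCDHB5 had 105 counts in the knockout and 166 in wild type. PCDHB4 had 4 counts in the knockout and 3 in wild type, and PCDHB13 had 164 in the knockout and 80 in wild type. The single-end knockout, 1 library of a clone the label does not name, thus showed neither the PCDHB5 nor the PCDHB4 level of clone 1.

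**Figure D5:**
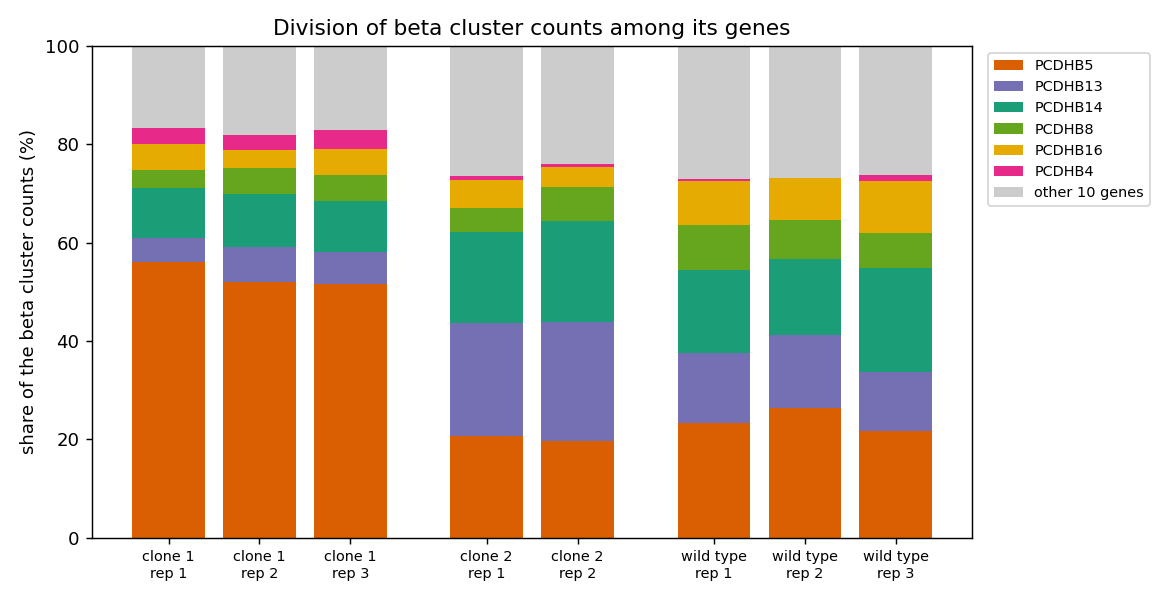
Share of the summed beta cluster counts taken by 6 of its genes and by the other 10 together, in percent, for each paired-end library of clone 1, clone 2 and wild type. PCDHB5 fills over 50% of each clone 1 bar, and PCDHB13 fills more of each clone 2 bar than of any other bar.

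Promoter sequences are shown for the beta genes because their levels differed gene by gene and clone by clone. Protocadherin promoters are known for a conserved sequence element with a CGCT core. RefSeq promoters (GRCh38.p14, 250 bases before to 50 after the transcript start) matched 78 of the 102 members. The letters CGCT, on either strand, were in 92.3% of these and in 70.0% of all 35116 promoters of the table, and in 14 of 14 beta promoters, 12 of 13 alpha promoters and 20 of 20 gamma promoters. The letters CCCTC were on either strand in 47.4% of the members' promoters, 0 of 14 beta promoters and 71.2% of all. The longer run GGTGGCGCT, chosen after the sequences were seen and holding CGCT at its end, was on either strand in 13 of 14 beta promoters, 0 of 13 alpha promoters, 0 of 20 gamma promoters and 176 of all 35116 (0.501%). PCDHB1 was the beta gene whose promoter did not hold it, and PCDHB6 and PCDHB11 were not matched. The 250 bases before the start of the genes that stood apart in 1 clone follow, 5′ to 3′ on the + strand, with GGTGGCGCT in capitals.
PCDHB4, chr5:141121568-141121817: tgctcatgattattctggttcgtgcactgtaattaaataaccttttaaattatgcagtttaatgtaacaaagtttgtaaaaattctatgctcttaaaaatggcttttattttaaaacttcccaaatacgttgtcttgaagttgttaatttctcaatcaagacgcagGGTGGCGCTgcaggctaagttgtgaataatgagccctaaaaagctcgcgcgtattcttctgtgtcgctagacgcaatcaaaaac
PCDHB5, chr5:141134956-141135205: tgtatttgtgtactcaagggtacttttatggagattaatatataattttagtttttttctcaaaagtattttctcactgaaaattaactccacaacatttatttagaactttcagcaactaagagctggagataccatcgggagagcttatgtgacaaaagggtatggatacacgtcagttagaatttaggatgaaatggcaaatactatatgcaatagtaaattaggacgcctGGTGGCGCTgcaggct
PCDHB13, chr5:141213669-141213918: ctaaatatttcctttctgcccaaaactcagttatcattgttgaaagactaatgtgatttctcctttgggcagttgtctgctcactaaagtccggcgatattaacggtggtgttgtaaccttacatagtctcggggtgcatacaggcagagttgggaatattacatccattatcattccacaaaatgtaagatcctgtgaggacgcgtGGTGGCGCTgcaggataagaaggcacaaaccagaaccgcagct
The same letters and their surroundings, in windows of 30 bases on the + strand, follow for a gene alike in the clones (PCDHB14), for PCDHB12 and for genes called in no comparison (PCDHB3, PCDHB16 and PCDHB15).
PCDHB14, chr5:141223263-141223292: tggagacacatGGTGGCGCTacaggataag
PCDHB12, chr5:141208643-141208672: tggagacgcgtGGTGGCGCTgcaggataat
PCDHB3, chr5:141100393-141100422: agcgaacgcatGGTGGCGCTgttgactaag
PCDHB16, chr5:141182310-141182339: tgagaacgcgtGGTGGCGCTgcaggttaag
PCDHB15, chr5:141245314-141245343: agacaacgcatGGTGGCGCTgcaggctaag
The run began 84 bases before the transcript start in PCDHB4, 16 in PCDHB5, 43 in PCDHB13, 69 in PCDHB14 and 69 in PCDHB3, so genes that stood apart and genes that did not both held it. A match of letters is a description of these windows and not a measured binding site.

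In the alpha cluster 5 of 15 members were tested, and 3 of them fell in clone 1. PCDHA7 (ENSG00000204963, chromosome 5, 140834248 to 141012344) stood at 0.695, 0.686 and 0.642 CPM in clone 1, 1.19 and 1.25 CPM in clone 2, against 1.71, 1.97 and 1.84 CPM in wild type. The groups did not overlap, clone 1 being lowest and wild type highest. PCDHA7 fell in clone 1 (log2 fold change -1.44, SE 0.188, edgeR adjusted p = 0.000204) and gave -0.59 in clone 2 (SE 0.196, edgeR adjusted p = 0.0747). The clone average was -1.01, and -1.02 in the first run alone. PCDHA13 (ENSG00000239389, chromosome 5, 140882208 to 141012344) had nearly the same counts as PCDHA7, with differences of at most 3 counts over the 10 libraries and equal counts in 3 of them. Each of these genes has 2866 shared exon bases. Members with as many shared bases took from 0% (PCDHA6) to 25.6% (PCDHA7) of the alpha counts on average in wild type. Why the PCDHA7 and PCDHA13 rows are near-equal was not tested, and they cannot be taken as separate measurements. Both are nevertheless counted as members in the counts and shares of called members. PCDHA13 gave -1.47 in clone 1 (edgeR adjusted p = 0.000196) and -0.65 in clone 2 (edgeR adjusted p = 0.0536). PCDHAC2 (ENSG00000243232, chromosome 5, 140966235 to 141012344), the last alpha gene before the constant exons, stood at 0.634, 0.848 and 0.592 CPM in clone 1, 1.53 and 1.76 CPM in clone 2, against 1.69, 1.71 and 1.65 CPM in wild type. Clone 1 was lowest and clone 2 overlapped wild type. PCDHAC2 fell in clone 1 (log2 fold change -1.25, SE 0.203, edgeR adjusted p = 0.00109), and clone 2 was higher than clone 1 by 1.23 (SE 0.220, edgeR adjusted p = 0.00752). The first run alone gave a difference of 1.26 and the fit without clone 2 replicate 2 gave 1.12, each with 1 library of clone 2. The call of PCDHAC2 in the clone average (-0.64, edgeR adjusted p = 0.0197) was lost in 5 of 19 alternatives, with all knockout libraries as 1 group (-0.63, adjusted p = 0.221) and without any 1 wild type library or clone 2 replicate 1, where adjusted p reached 0.0749. PCDHA3 and PCDHAC1 were called in no comparison.

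The 14 tested gamma genes, of 22, were called in no comparison by edgeR, and DESeq2 called 0 of them. The clone average gave 3 of them an unadjusted p under 0.05 upward and 0 downward, against 16.8% of all features upward and 14.6% downward. Their median was 0.30 for clone 1 and 0.34 for clone 2 on the log2 scale. PCDHGC3, a C-type gene found in many tissues, averaged 10.7 ± 0.791 CPM in clone 1, 11.1 ± 0.196 CPM in clone 2 and 9.61 ± 0.707 CPM in wild type (edgeR adjusted p = 0.148). PCDHGB5 (ENSG00000276547, chromosome 5, 141397987 to 141512979) had the smallest p of the cluster. It stood at 5.59, 6.12 and 5.33 CPM in clone 1, 5.74 and 6.16 CPM in clone 2, against 4.63, 4.42 and 5.31 CPM in wild type. Every knockout library was above every wild type library, by a log2 fold change of 0.28 that did not pass (SE 0.104, edgeR adjusted p = 0.0795).

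Genes that work with the superfamily were counted from lists. Their values under the alternatives, the GC correction among them, are not given here. By clone, 9.37% of all features rose and 6.64% fell in clone 1, and 6.18% rose and 4.59% fell in clone 2. Of 18 catenins and plaque proteins, which tie cadherins to the cytoskeleton, 15 were tested, 3 rose and 3 fell in the clone average, in which 9.87% of all features rose and 8.09% fell. In clone 1, 2 rose and 1 fell, and in clone 2, 1 rose and 1 fell. PPL, the plaque protein periplakin, averaged 8.21 CPM in clone 1, 10.1 CPM in clone 2 and 3.82 CPM in wild type (log2 fold change 1.25, SE 0.117, edgeR adjusted p = 7.96e-06). PKP2, the plakophilin that joins DSC2 and DSG2 in desmosomes, averaged 14.7 CPM in clone 1, 14.5 CPM in clone 2 and 18.1 CPM in wild type (log2 fold change -0.31, SE 0.077, edgeR adjusted p = 0.0131). CTNNB1, beta-catenin, averaged 318 CPM in clone 1, 317 CPM in clone 2 and 335 CPM in wild type and did not pass (edgeR adjusted p = 0.342). Of 16 genes of CTCF, cohesin and DNA methylation that regulate the protocadherin clusters, none rose and 5 fell in the clone average, among them STAG2 of cohesin (log2 fold change -0.30, SE 0.056, edgeR adjusted p = 0.00237) and SMCHD1 (-0.30, SE 0.086, edgeR adjusted p = 0.037), while CTCF gave 0.0022 (SE 0.044, edgeR adjusted p = 0.981). Of these genes, 4 were called down in clone 1 and 2 in clone 2. Of 15 genes of planar cell polarity and Fat signalling, 1 rose (PRICKLE1, 0.20, edgeR adjusted p = 0.0353) and 3 fell in the clone average, led by LIX1L (-0.34, edgeR adjusted p = 0.000343) and FZD3 (-0.31, edgeR adjusted p = 0.00298). In clone 1, 1 was called up and 2 down, and in clone 2, 0 up and 4 down. Of 14 transcription and splicing regulators of cadherins, 10 were tested, with 2 up and 2 down in clone 1 and 1 up and 1 down in clone 2. The clone average follows. GRHL1, an activator of epithelial genes, rose (0.40, edgeR adjusted p = 0.00258), and ZEB2 (-0.38, edgeR adjusted p = 0.000343) and ZEB1 (-0.33, edgeR adjusted p = 0.0149), repressors of E-cadherin, fell, with CDH1 still at 0 or 1 count in every library. The 8 proteases that cut cadherins were called in no direction, with an unadjusted p under 0.05 for ADAM10 (-0.12, edgeR adjusted p = 0.121) and NCSTN (0.12, edgeR adjusted p = 0.135).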

How the data were processed

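Polyadenylated RNA of the 10 HAP1 samples was sequenced from 65 ng of total RNA each with a stranded kit and ERCC spike-ins, per the labels' protocols, and no spike-in value enters here. The deposited tables hold the authors' counts of reads per gene and repeat subfamily, whole numbers with no normalization, as the values show. The submitters' processing notes name STAR 2.5.2a and hg38 (GRCh38). The sources used here do not give the counting strand setting, the treatment of reads shared by several genes or the release of the gene annotation.

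CPM values, levels per kilobase of exon and the clone average (the equal mean of both clones' log2 fold changes) were computed here from the counts. The members, gene lists and tests were chosen with earlier results of these data known. Features passing edgeR's filterByExpr (20747) were scaled by TMM and tested over the 8 paired-end libraries with edgeR 4.0.16 (quasi-likelihood F test, robust, 1 mean per group), with Benjamini-Hochberg adjustment over all features and calls at an adjusted p below 0.05. SEs were taken as the size of the log2 fold change over the square root of F. The labels do not say whether replicates were separate cultures, and the p-values therefore reflect a spread among samples that may be technical. No 2 replicates agreed within sampling noise (chi-square per degree of freedom 3.35 to 15.5). Values in every library are given for members called in any comparison with a mean of at least 1 CPM, the 3 highest per length, and the smallest p of any other family, with exceptions named in the text. The single-end pair gives values only. GENCODE 29 gave exons and coordinates, and RefSeq (GRCh38.p14) gave promoters. Alternatives used DESeq2 1.42.0, other scalings and filters, the replicate number as a block, GC and length corrections (mgcv 1.9.3), the sample number runs, summed cluster rows and leaving out each library. The code was tested on simulated counts.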

Additional observations from a re-analysis of the deposited data

Results flagged for a closer look

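In 9 members the effects of the clones against wild type differed by the test of clone 2 against clone 1 (edgeR, adjusted p below 0.05), which uses no wild type library as a common base. Clone 2 was higher in 5 of them, with log2 differences of 0.31 for CDH2, 0.55 for CDH10, 0.87 for DCHS1, 1.23 for PCDHAC2 and 0.99 for PCDHB13. It was lower in the other 4, with log2 differences of -2.31 for PCDH17, -0.50 for PCDH20, -3.02 for PCDHB4 and -2.34 for PCDHB5. In every 1 of the 9 members, both clone 2 libraries lay on the same side of all 3 clone 1 libraries. The members were picked by a test on these same libraries, so this adds no support. The 9 are 16.1% of the tested members, against 2.09% of all features. Of 19 alternatives, the call was lost in 9 for CDH2, 8 for CDH10 and 9 for PCDH20.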

How the results depend on the processing

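No called member result changed sign under any of the 20 alternatives. Members that were not called could change sign, as CDH6 did in the clone average (-0.043, and 0.084 with the GC correction). Over the 58 calls of single members in the 4 comparisons, 33 kept their call in every alternative and 969 of 1097 values kept it. The 8 members up in the clone average became 5 with a term for the sample number run, with all knockout libraries as 1 group and with cluster rows summed. They ran from 4 to 12 when 1 library of wild type or clone 1 was left out. Features called in either direction were 3725 in the main fit. They were 4086 with the run term, 3310 with 1 knockout group, 3709 with summed rows, and 1847 to 4251 with 1 such library left out. The 20 members called in clone 1 became 13 with cluster rows summed, since fewer rows are then tested, and features called went from 3321 to 3314. The 9 that differed between the clones became 6 or 7 with 1 library of wild type or clone 1 left out. Features called between the clones were 434 in the main fit and 323 to 418 in those fits. With all knockout libraries as 1 group, the alpha sum gave -0.68 (adjusted p = 0.0583) and the beta sum 1.03 (adjusted p = 0.0582) against wild type. These are differences of 1 mean over all knockout libraries, not clone averages. In the first run alone, with 1 library of each clone, the alpha sum of clone 2 against clone 1 gave 0.80. The gamma sum in the clone average was no longer called with DESeq2 (0.20), RLE scaling (0.20), TMM from gene rows (0.20), at least 10 counts in 3 libraries (0.20), GC correction (0.14), GC and length correction (0.13), the run term (0.14) and the first run alone (0.14), and ran from 0.15 to 0.23 with 1 library left out. In clone 2 the gamma sum became called without the filter (0.25, adjusted p = 0.0296) and ran from 0.22 to 0.27 with 1 library left out, being called without clone 1 replicate 2. The causes of these shifts were not tested, apart from the summed rows.

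Residuals of libraries with the same replicate number correlated at -0.233 to 0.054 between wild type and a clone and at 0.253 and 0.197 between the clones, so not every pair was above 0.1 and the numbers were not taken to pair the samples. With the replicate block 10 members were up and 11 down in the clone average, 22 were called in clone 1, 13 in clone 2 and 8 between the clones, and the beta sum in the clone average was 0.87. Over all 20747 features the block gave 4248 calls in the clone average, 3716 in clone 1, 2526 in clone 2 and 431 between the clones. After the GC correction the median log2 fold change of the tested members was 0.055, against 0.14 before it. The 46 untested members had too few counts for the filter, and without it 12 members were up and 12 down in the clone average, with 4330 of 35833 features called. The second run of sample numbers held no wild type library, so run and genotype cannot be told apart there.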

Other observations

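Members that were nearly silent in the paired-end libraries were not all so in the single-end pair. FAT2, a Fat cadherin of epidermis and cerebellum, had 69 counts in the single-end knockout and 63 in the single-end wild type, and at most 1 count in any paired-end library. PCDH12, a protocadherin of endothelium and placenta, had 57 counts in the single-end knockout and 42 in the single-end wild type, and at most 4 counts in any paired-end library. Both genes were counted in both single-end samples, so the contrast with the paired-end libraries was seen in knockout and wild type alike. Its cause was not tested. CDH11 had 15 counts in the single-end knockout and 7 in the single-end wild type and none in the paired-end libraries.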
